A study of Mus musculus with 6 samples.

Results

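The tissue kallikreins are a family of secreted serine proteases, and 8 of their genes in the mouse (Klk1, Klk1b27, Klk1b21, Klk1b22, Klk1b24, Klk1b11, Klk1b5 and Klk8) were compared between Treg cells with and without Batf. They were chosen by their measured differences between these genotypes, so those differences, their standard errors and their place relative to any threshold are a description and no test of the members. A member was measured by the probe sets that the array's annotation pairs with that gene alone. Of the 8 genes 7 had such a probe set, 11 probe sets in all, among 18193 genes on the array. Klk1b22 had none, since its probe set also lists Klk1b9, and that probe set is described apart.

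Regulatory T (Treg) cells restrain immune responses under the control of Foxp3, and Batf is an AP-1 family transcription factor of activated lymphocytes. The RNA came from Treg cells of Batf-/- mice (FoxP3hCD2.Batf-/-, 3 arrays) and of Batf+/+ mice (FoxP3hCD2.Batf+/+, 3 arrays). Both groups were C57BL/6, and both carried the human CD2 reporter of Foxp3 by which CD4+ hCD2+ cells were sorted from lymph node and spleen, without culture or treatment. Age, sex, the number of mice per array and the construction of the Batf allele are not given in the sources used here. The samples are labelled as triplicates, with no word on whether separate mice gave them, so the errors and p-values cover only the spread among these arrays, which may be technical.

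Kallikreins are made as inactive precursors, secreted and cut to the active protease. The tissue kallikrein proper, encoded by Klk1, releases kinin peptides from kininogen, and kinins act through the bradykinin receptors on vessels and sensory nerves. In the mouse the family has expanded into a row of closely related Klk1b genes beside Klk1, many of them known from the submandibular gland, where some process growth factors such as EGF. Their transcripts resemble each other, so a probe set for one can also bind the transcript of another. The probe set suffix _x_at marks probes that the manufacturer found to match other sequences too.

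All levels are on the log2 scale, set against the Batf+/+ median of each probe set. They compare genotypes within a gene and say nothing on how abundant a transcript was, so whether a kallikrein was above background is unknown. Batf itself, which checks the labels, was at -3.13, -3.16 and -2.37 on the Batf-/- arrays and at -0.13, 0 and 0.14 on the Batf+/+ arrays, which differ by -2.89 ± 0.19 (SE, limma over 3 arrays of each genotype, adjusted p = 0.000202). The position of its probe set relative to the deletion was not analysed here. Of the 6 Treg markers tested (Foxp3, Il2ra, Ctla4, Ikzf2, Cd3e and Cd4) 0 passed an adjusted p of 0.05 in limma, with differences between -0.51 and 0.21. At an unadjusted p below 0.05 there were 2 of them, where 7.69% of all genes had such a p. They were Ikzf2, which encodes the transcription factor Helios, at -0.51 ± 0.10 (SE, limma adjusted p = 0.0526), and Il2ra, the high-affinity receptor chain for IL-2, at 0.21 ± 0.07 (SE, limma adjusted p = 0.394), both named after their values were seen. The arrays of the genotypes did not overlap in 3 of the 6, all lower in Batf-/- cells (Ikzf2, Foxp3 and Cd3e), against 6.55% of all genes. Il2ra was the 1 separated higher, against 5.5%. Foxp3 differed by -0.12 ± 0.08 (SE, limma adjusted p = 0.892) and Cd3e by -0.09 ± 0.07 (SE, limma adjusted p = 0.952). Because levels are unknown, these markers could be compared between genotypes but could not show the cell type itself. Over all genes 208 passed (1.14%), 57 higher and 151 lower (0.83%) in Batf-/- cells. With 3 arrays a group, precision is limited by their number.

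Klk1b27 stood apart from the other kallikreins. It encodes a serine protease known in the mouse from the submandibular gland and from Leydig cells of the testis. Its values were 1.57, 1.33 and 2.23 on Batf-/- arrays 1, 2 and 3, against -0.08, 0.26 and 0 on Batf+/+ arrays 1, 2 and 3. All 3 Batf-/- arrays lay above all 3 Batf+/+ arrays, with 1.06 between the lowest of the first and the highest of the second. The mean was 1.71 ± 0.47 in Batf-/- cells and 0.06 ± 0.18 in Batf+/+ cells (SD, n = 3 each), a log2 difference of 1.65 ± 0.21 (SE) or 3.13-fold. It was the seventh largest increase among the 18193 genes.

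The values of Klk1b27 also differed among the Batf-/- arrays themselves. Array 3 was 1.87-fold above array 2, a range of 0.91 on the log2 scale. Without Batf-/- array 3 the log2 difference was 1.39, and without Batf-/- array 2 it was 1.84. Between arrays of the same number the difference was 1.65 for number 1, 1.06 for number 2 and 2.23 for number 3. A single probe set, 1421587_at, measured the gene, so no other probe set checks this difference. In RNA of many cells, more cells with the transcript and more transcript per cell cannot be told apart.

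**Figure D1:**
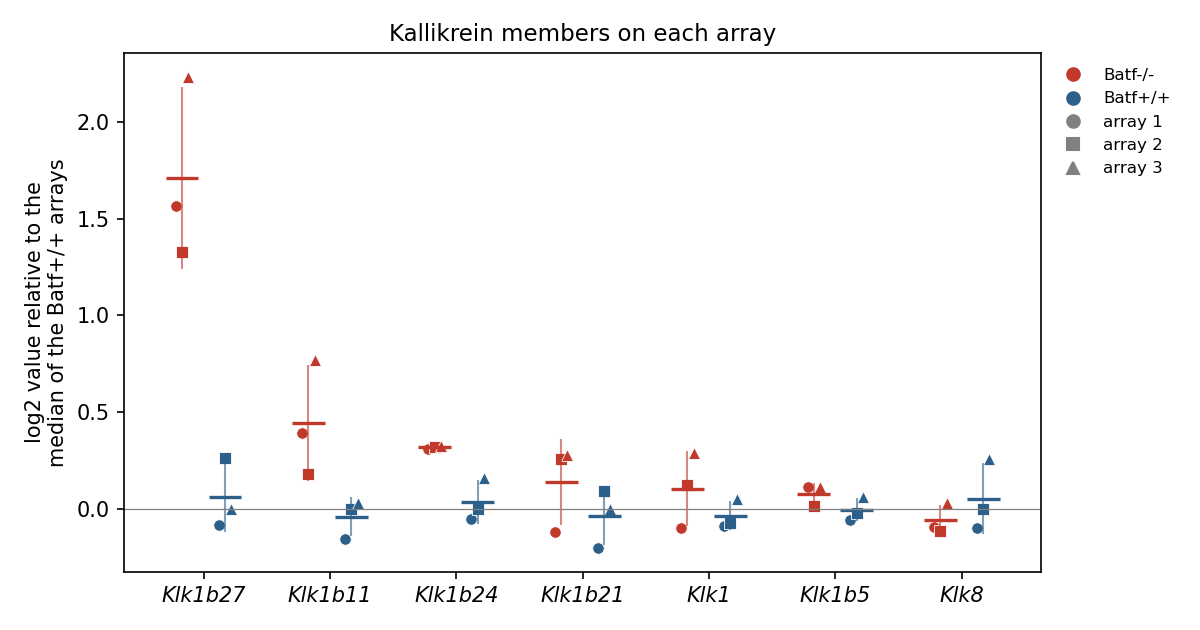
Log2 value relative to the Batf+/+ median for the 7 measured members, with Batf-/- arrays in red on the left of each gene and Batf+/+ arrays in blue on the right. Symbols are array numbers, horizontal bars are means and vertical lines are ± SD (n = 3). Klk1b27 sits between 1.33 and 2.23 on the Batf-/- arrays, and Klk1b11 and Klk1b24 lie higher on those arrays by smaller margins.

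Klk1b11 and Klk1b24 differed in the same direction but far less. Klk1b11 had 0.39, 0.18 and 0.77 on Batf-/- arrays 1, 2 and 3, against -0.16, 0 and 0.03 on Batf+/+ arrays 1, 2 and 3. The groups did not overlap, although the lowest Batf-/- array was only 0.15 above the highest Batf+/+ array. The log2 difference was 0.49 ± 0.14 (SE), or 1.40-fold, and 0.33 without Batf-/- array 3. Klk1b24, another protease known from mouse Leydig cells, had 0.31, 0.32 and 0.33 on the Batf-/- arrays, against -0.05, 0 and 0.16 on the Batf+/+ arrays. Its Batf-/- arrays were nearly equal (SD 0.0074), all above the Batf+/+ arrays, and the log2 difference was 0.28 ± 0.08 (SE), or 1.22-fold. In Klk1b11, as in Klk1b27, array 3 was the highest and array 2 the lowest of the Batf-/- arrays. Whether the probe sets of Klk1b11 and Klk1b24 also bound the transcript of Klk1b27 was not tested.

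The remaining members, each taken as the mean of its probe sets, overlapped between genotypes. Klk1b21, the third protease of this group known from Leydig cells, had -0.12, 0.26 and 0.28 in Batf-/- cells, against -0.20, 0.10 and 0 in Batf+/+ cells. Batf-/- array 1 lay below 2 of the Batf+/+ arrays, and the log2 difference was 0.17 ± 0.12 (SE). Klk1b5 had 0.11, 0.02 and 0.11 in Batf-/- cells, against -0.06, -0.02 and 0.06 in Batf+/+ cells, and its log2 difference was 0.08 ± 0.07 (SE). Klk8 encodes neuropsin, a protease known from brain and skin, and lies outside the Klk1b row. It had -0.09, -0.11 and 0.03 in Batf-/- cells, against -0.10, 0 and 0.26 in Batf+/+ cells. Its log2 difference was -0.11 ± 0.10 (SE), the only one of the 7 below 0.

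Klk1, the kinin-releasing enzyme, was measured by 4 probe sets that disagreed. The average of the 4 was -0.10, 0.13 and 0.29 on the Batf-/- arrays, against -0.09, -0.07 and 0.05 on the Batf+/+ arrays, a log2 difference of 0.14 ± 0.11 (SE). The probe set without the suffix for shared sequence, 1415837_at, had 0.02, 0.13 and 0.73 in Batf-/- cells, against -0.14, 0 and 0.0031 in Batf+/+ cells. In this probe set the genotypes did not overlap, although the lowest Batf-/- array was barely above the highest Batf+/+ array. Batf-/- array 3 lay far above all the others, and the difference was 0.34 ± 0.18 (SE). The other 3, all with the suffix _x_at, gave log2 differences of 0.25, 0.04 and -0.06. The 2 probe sets of Klk1b5 gave 0.13 with the suffix and 0.04 without it.

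In order of the log2 difference the members ran Klk1b27, Klk1b11, Klk1b24, Klk1b21, Klk1, Klk1b5 and Klk8. In the fit over all genes 1 of the 7, Klk1b27, was past the adjusted threshold of 0.05, beside 0.313% of all genes in that direction. The groups did not overlap in 3 of the 7 members, all higher in Batf-/- cells, where 5.5% of all genes were separated in that direction. The median log2 difference of the 7 was 0.17, against 0.0047 over all genes, and it was 0.28 without probe sets ending in _x_at, _s_at or _a_at, 0.10 without Batf-/- array 3 and 0.29 without Batf-/- array 1. Nothing is read from these counts, since the same contrast chose the genes.

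With probe sets averaged per gene, Batf-/- array 3 carried the highest of the 3 Batf-/- values in all 7 members. It did so in 7 of the 13 other kallikreins measured, and in Klk1b24 and Klk1b5 it barely passed the next array. Over all genes this array was the highest of the 3 in 41.1%. Single probe sets differed, as 1448107_x_at and 1460050_x_at of Klk1 were highest on array 2 and 1449313_at of Klk1b5 on array 1. Markers of B cells, myeloid cells, CD8 T cells and plasma cells also had their highest median of the Batf-/- arrays on array 3. So did lists that mark none of these cells. Their medians there were 0.09 for 20 genes beside the cluster and 0.16 for 25 kinin, inhibitor and substrate genes. Markers of NK cells, Treg cells and the salivary gland had their highest median on Batf-/- array 2. The median of the 3 measured B cell markers (Cd79a, Cd79b and Ms4a1) was 0.10, 0.06 and 0.34 on Batf-/- arrays 1, 2 and 3, against -0.03, -0.18 and 0.12 on Batf+/+ arrays. The median of 5 myeloid markers was -0.24, 0.01 and 0.19 on Batf-/- arrays, against -0.06, 0 and 0.09 on Batf+/+ arrays. Of these 8 markers 0 passed the adjusted threshold in limma and 0 had an unadjusted p below 0.05, beside 1.14% and 7.69% of all genes. The median of 2 CD8 T cell markers was 0.03, -0.08 and 0.08 on Batf-/- arrays, against -0.04, 0.05 and -0.05 on Batf+/+ arrays. That of 2 plasma cell markers lay between -0.06 and 0.01 on Batf-/- arrays, against -0.03 and -0.0027 on Batf+/+ arrays. That of 2 NK cell markers was -0.29, 0.09 and -0.08 on Batf-/- arrays, against -0.19, 0.20 and 0 on Batf+/+ arrays. These 3 lists gave 0 called in limma, and 0 at an unadjusted p below 0.05, beside the same shares of all genes. The part of these cells in the kallikrein values was not tested.

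Of the probe sets that list several genes, 2 list a kallikrein. The probe set listing Klk1b9 and Klk1b22 had 0.25, 0.24 and 0.83 on Batf-/- arrays 1, 2 and 3, against -0.36, 0 and 0.01 on Batf+/+ arrays. Both genes encode proteases that RefSeq also lists as EGF-binding proteins. The groups did not overlap, and the log2 difference was 0.56 ± 0.18 (SE), with array 3 again the highest. Which of the 2 transcripts it reports cannot be told apart, and whether it also bound the transcript of Klk1b27 was not tested. The probe set listing Klk1b26 and Egfbp2, which RefSeq gives as an older name of Klk1b26, overlapped between genotypes, with 0.19, -0.04 and 0.38 in Batf-/- cells, against -0.12, 0.02 and 0 in Batf+/+ cells. A probe set annotated to Egfbp2 alone had a log2 difference of 0.06 ± 0.14 (SE). All 3 carry the suffix _x_at.

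The other kallikreins are the genes of the family outside the 8 members. Since the members were chosen by their differences, nothing is read from the smaller ones here. Of 20 such other kallikrein genes looked for, 13 were measured, and 0 were called in limma in either direction (1.14% of all genes). At an unadjusted p below 0.05 there were 0 of the 13, where 7.69% of all genes had such a p. The log2 differences of the 13 ran from -0.17 to 0.19 around a median of 0.02. Klk1b8 was the highest with -0.0032, 0.42 and 0.19 in Batf-/- cells, against -0.02, 0.05 and 0 in Batf+/+ cells. Klk10 was the lowest with -0.18, -0.24 and -0.11 in Batf-/- cells, against 0, 0.12 and -0.13 in Batf+/+ cells. Both overlapped between genotypes. The 4 of these 13 that are Klk1b genes ran from -0.07 to 0.19, and the 9 from Klk4 to Klk15 from -0.17 to 0.15. Klk1b26 is not counted among the 13, since the probe sets that reach it list Egfbp2.

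**Figure D2:**
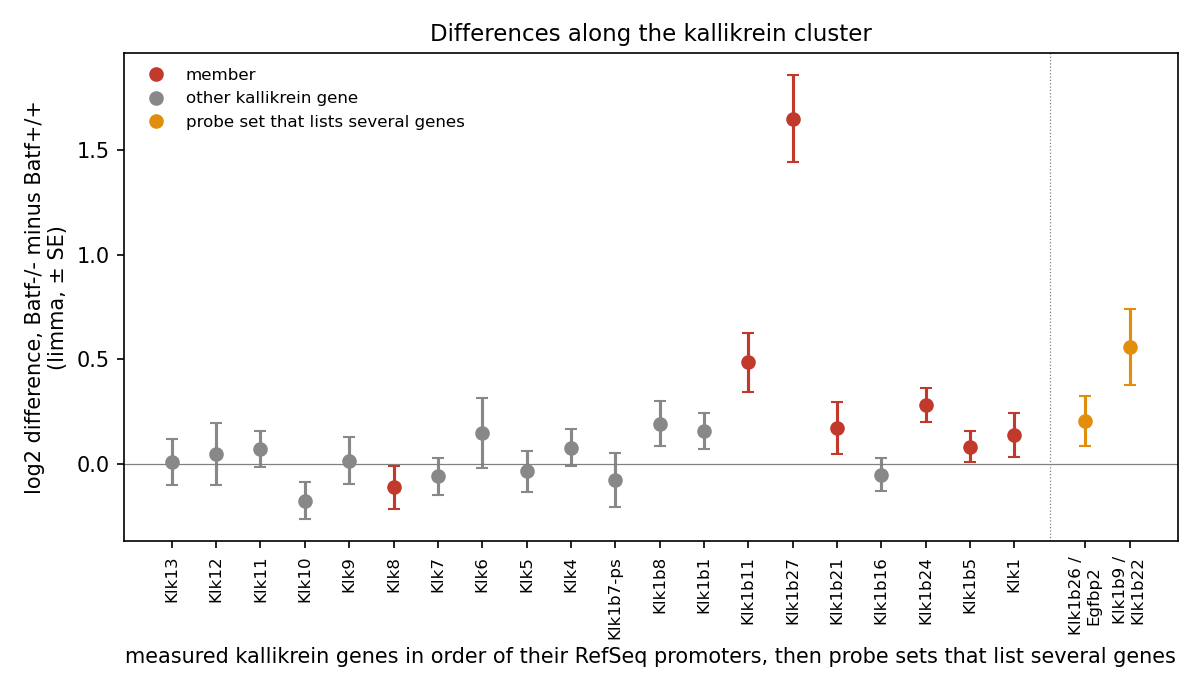
Log2 difference, Batf-/- minus Batf+/+, with its standard error (limma, n = 3 arrays per genotype) for the 20 measured kallikrein genes in the order of their RefSeq promoters from Klk13 to Klk1 (Klk1b7-ps placed by its locus), followed by the 2 probe sets that list several genes. Klk1b27 stands at 1.65 between Klk1b11 at 0.49 and Klk1b21 at 0.17, and the probe set for Klk1b9 and Klk1b22 stands at 0.56.

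All members lie on chromosome 7, and the genes beside the cluster were not called. Within it, in the order of the listed promoters, the kallikreins measured under their RefSeq symbol nearest to Klk1b27 on either side were Klk1b11 and Klk1b21. Their log2 differences were 0.49 and 0.17. The listed promoter of Klk1b26, reached only by probe sets that list Egfbp2, lies between those of Klk1b11 and Klk1b27. RefSeq gives Klk1b21 a long locus that contains Klk1b27, with its listed promoter beyond Klk1b27. Klk1b16, which follows next among the measured genes, had a log2 difference of -0.05 ± 0.08 (SE). Beyond the ends of the cluster, the 10 nearest measured genes on each side gave 0 of 20 called in limma, and 0 at an unadjusted p below 0.05. Over all genes these shares were 1.14% and 7.69%, and nothing is read from the counts. The log2 differences of the 20 ran from -0.14 to 0.18. Ctu1, which takes part in the thiolation of tRNA, was the nearest before Klk14 with 0.04 ± 0.08 (SE). 1700028J19Rik, the nearest after Klk1, had the largest difference of these genes at 0.18 ± 0.11 (SE, limma adjusted p = 0.858).

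The promoters are shown because Klk1b27 and members with far smaller differences have similar ones. RefSeq promoters of 300 bases (GRCm38.p6, 250 bases before to 50 after the start, plus strand) were found for all 8 members. They are given for Klk1b27 (chr7:44052040-44052339), Klk1b24 (chr7:44187986-44188285), Klk1b21 (chr7:44102042-44102341), Klk1b11 (chr7:43995627-43995926) and Klk1 (chr7:44225110-44225409). Capitals mark the letters TTTAAA, an AT-rich stretch whose place relative to the listed start differs between the genes.
Klk1b27: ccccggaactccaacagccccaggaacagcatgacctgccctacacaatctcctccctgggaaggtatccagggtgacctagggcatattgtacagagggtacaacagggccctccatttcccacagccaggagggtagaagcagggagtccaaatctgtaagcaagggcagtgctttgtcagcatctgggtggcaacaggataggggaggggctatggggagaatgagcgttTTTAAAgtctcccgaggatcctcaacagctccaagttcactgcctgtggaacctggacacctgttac
Klk1b24: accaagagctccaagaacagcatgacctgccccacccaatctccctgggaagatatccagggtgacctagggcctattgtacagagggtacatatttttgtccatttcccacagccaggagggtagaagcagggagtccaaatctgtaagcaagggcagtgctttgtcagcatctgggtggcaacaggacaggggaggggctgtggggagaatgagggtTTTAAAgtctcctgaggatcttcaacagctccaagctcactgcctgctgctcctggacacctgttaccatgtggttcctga
Klk1b21: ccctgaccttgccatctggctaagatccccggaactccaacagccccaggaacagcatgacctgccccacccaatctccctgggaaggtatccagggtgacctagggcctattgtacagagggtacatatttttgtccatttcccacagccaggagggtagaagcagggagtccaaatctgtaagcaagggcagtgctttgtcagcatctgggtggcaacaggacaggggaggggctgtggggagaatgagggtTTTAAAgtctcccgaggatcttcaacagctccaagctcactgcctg
Klk1b11: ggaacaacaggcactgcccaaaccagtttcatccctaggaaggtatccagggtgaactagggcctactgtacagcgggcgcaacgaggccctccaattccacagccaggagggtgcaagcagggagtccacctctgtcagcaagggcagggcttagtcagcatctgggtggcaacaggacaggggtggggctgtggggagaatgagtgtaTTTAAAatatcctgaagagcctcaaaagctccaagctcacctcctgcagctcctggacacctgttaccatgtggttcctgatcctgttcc
Klk1: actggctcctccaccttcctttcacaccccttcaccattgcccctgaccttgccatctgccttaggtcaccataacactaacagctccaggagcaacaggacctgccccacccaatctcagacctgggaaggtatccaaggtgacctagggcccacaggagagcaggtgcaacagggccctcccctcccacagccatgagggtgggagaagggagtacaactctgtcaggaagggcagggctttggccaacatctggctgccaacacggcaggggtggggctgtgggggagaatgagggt

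The Klk1b promoters resembled each other to varying degrees. Between pairs of the 6 Klk1b members the identity ran from 58.6% to 83.9%. That of Klk1b27 was 83.1% identical to that of Klk1b24, 79.4% to that of Klk1b21 and 73.1% to that of Klk1b11, counted over aligned columns. It shared an unbroken run of 89 bases, from 137 to 49 bases before its start, with both Klk1b24 and Klk1b21. The 12 other Klk1b genes with a promoter had between 67.7% and 83.1% identity to Klk1b27, against 41.7% to 50.9% in the 15 promoters of Klk1 and Klk4 to Klk15. Aligned columns include the unmatched ends of windows whose listed starts are shifted, which lowers these percentages. Klk1, at 50.9%, had 188 matches in 369 columns. A run of 16 bases lies 128 to 113 bases before its start, but 195 to 180 before that of Klk1b27. This value thus does not set the Klk1 promoter apart from those of the Klk1b genes. Among the genes measured under their RefSeq symbol, Klk1b24 and Klk1b21 had the promoters most like that of Klk1b27 by this percentage. Their log2 differences were only 0.28 and 0.17, beside its 1.65. The promoter of Klk1b26 lay between them at 80.6% identity, and only probe sets that list Egfbp2 reached that gene.

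**Figure D3:**
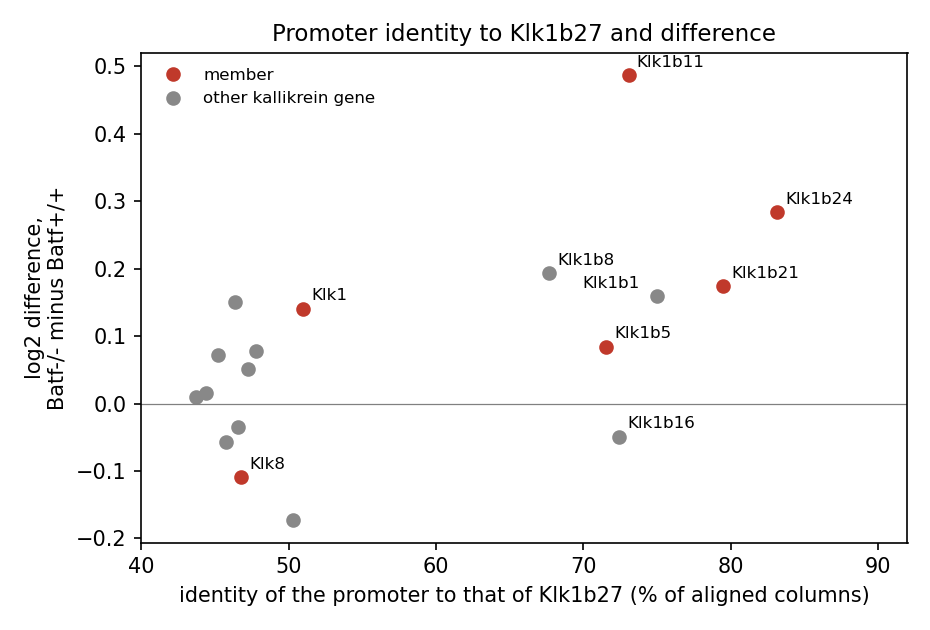
Identity of each measured kallikrein promoter to that of Klk1b27 (percent of aligned columns, horizontal) and the log2 difference, Batf-/- minus Batf+/+ (vertical), with members in red and other kallikrein genes in grey. For genes with more than 1 listed start the most similar promoter is plotted. Aligned columns include the unmatched ends of windows whose listed starts are shifted, as in Klk1 at 50.9%. Klk1b24 at 83.1% and Klk1b21 at 79.4% identity have differences of 0.28 and 0.17, and Klk1b11 at 73.1% has 0.49. Klk1b26, reached only by probe sets that list Egfbp2, is not plotted.

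Motifs were searched on both strands of the promoters of 26 kallikrein genes. Batf pairs with Jun proteins on AP-1 sites, and with Irf4 on composite sites. The AP-1 letters TGANTCA were in 0 of the 26, against 7.81% of all 32851 promoters. The composite forms, TTTC followed 4 bases later by TGANTCA and GAAA directly before TGANTCA, both contain the AP-1 letters and were in 0 as well, against 0.119% and 0.125% of all promoters. The CRE letters TGACGTCA were in 0, against 1.79%, and the IRF pair, GAAA and GAAA with 2 bases between them, was in 1, Klk11, against 3.44%. TTTAAA was in 13 of the 26, all of them Klk1b genes and 6 of them members, against 13.2% of all promoters. It lies 17 to 12 bases before the listed start in Klk1b27, 31 to 26 bases before it in Klk1b24, 40 to 35 bases before it in Klk1b11, and at bases 5 to 10 after it in Klk1b21. The windows of Klk1 and Klk8 lack these letters. That of Klk1 ends on the same bases that come directly before TTTAAA in Klk1b24 and Klk1b21. What follows them in Klk1 was not searched. TATAAA was in 1 of the 26, Klk15, against 13.6% of all promoters. These windows are short, and a missing match says only that the letters are not there.

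The rest of the kallikrein and kinin system was not called. Of 31 genes looked for 25 were measured, with 0 called in limma in either direction (1.14% of all genes). At an unadjusted p below 0.05 there were 3 (7.69% of all genes), and the median log2 difference was 0.04. Among the kinin precursors and proteases of the plasma arm (4 measured), F11, coagulation factor XI, had the largest difference at 0.22 ± 0.07 (SE, limma adjusted p = 0.396). Both bradykinin receptors were measured, with Bdkrb1 at 0.14 ± 0.11 (SE) and Bdkrb2 at 0.02 ± 0.08 (SE). Of 6 peptidases that degrade kinins or related peptides, Cpm, a carboxypeptidase of the cell membrane, had -0.25 ± 0.11 (SE, limma adjusted p = 0.684). Of 7 measured protease inhibitors, Serpinc1, antithrombin, had 0.36 ± 0.10 (SE, limma adjusted p = 0.202), the largest of all these genes. Of 4 substrates and protease-activated receptors, F2rl3 had -0.30 ± 0.15 (SE, limma adjusted p = 0.771). Of the 2 growth factor receptors measured, Egfr had 0.07 ± 0.08 (SE).

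Kallikreins are abundant in the salivary gland, which lies beside lymph nodes of the neck, and markers of that gland were therefore compared. Of 24 such genes 20 were measured, with 0 called higher in Batf-/- cells in limma (0.313% of all genes) and a median log2 difference of 0.04. In 15 of the 20 the difference was above 0, as it was in 51.8% of all genes. At an unadjusted p below 0.05 there were 2, Epcam and Dcpp3 (7.69% of all genes). Dcpp3, a secreted product of the gland, had the highest difference at 0.23 ± 0.09 (SE, limma adjusted p = 0.545), with 0.12, 0.31 and 0.27 in Batf-/- cells, against -0.14, 0 and 0.13 in Batf+/+ cells. Pip, another secreted product, was the 1 marker of the 20 whose Batf-/- arrays all lay above the Batf+/+ arrays, beside 5.5% of all genes. It had 0.13, 0.15 and 0.25 in Batf-/- cells, against 0.09, 0 and -0.0035 in Batf+/+ cells. Dcpp3 and Pip were picked with their values in view. The part of gland tissue in the kallikrein values was not tested. Over the 20 genes the median was -0.05, 0.07 and 0.05 on the Batf-/- arrays, against -0.06, 0 and 0.02 on the Batf+/+ arrays. Epcam, an adhesion molecule of epithelia that is also found on some leukocytes, was the 1 marker called, where 0.83% of all genes were called lower. It was lower, at -0.53 ± 0.08 (SE, limma adjusted p = 0.0119), with -0.66, -0.58 and -0.52 in Batf-/- cells, against 0, -0.05 and -0.12 in Batf+/+ cells. Of its 2 probe sets, the one ending in _a_at gave -0.92 and the one ending in _x_at gave -0.14. Its limma adjusted p as a gene ranged from 0.00516 to 0.897 over the alternatives, the highest with equal spike-in medians. It was 0.0654, 0.0725 and 0.0542 without Batf+/+ array 1, Batf+/+ array 2 or Batf-/- array 2.

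The genes whose 6 array values lay nearest to those of Klk1b27 were E330021D16Rik, Tdgf1, Vdr, Dmxl2 and Gm4951. Their root mean square difference from Klk1b27 over the 6 arrays ran from 0.24 to 0.30 on the log2 scale, among all genes that are no kallikrein. E330021D16Rik had 1.55, 1.34 and 1.99 in Batf-/- cells, against -0.05, -0.27 and 0.04 in Batf+/+ cells. Tdgf1, a co-receptor of Nodal, had 1.46, 1.41 and 1.80 in Batf-/- cells, against 0.19, 0 and -0.11 in Batf+/+ cells. Vdr, the vitamin D receptor, had 1.86, 1.86 and 2.20 in Batf-/- cells, against -0.03, 0.18 and 0.09 in Batf+/+ cells. In all 5 Batf-/- array 3 was the highest, a likeness that the measure itself favours. Dmxl2 and Gm4951 varied more among the Batf-/- arrays, with SDs of 0.74 and 0.60.

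**Figure D4:**
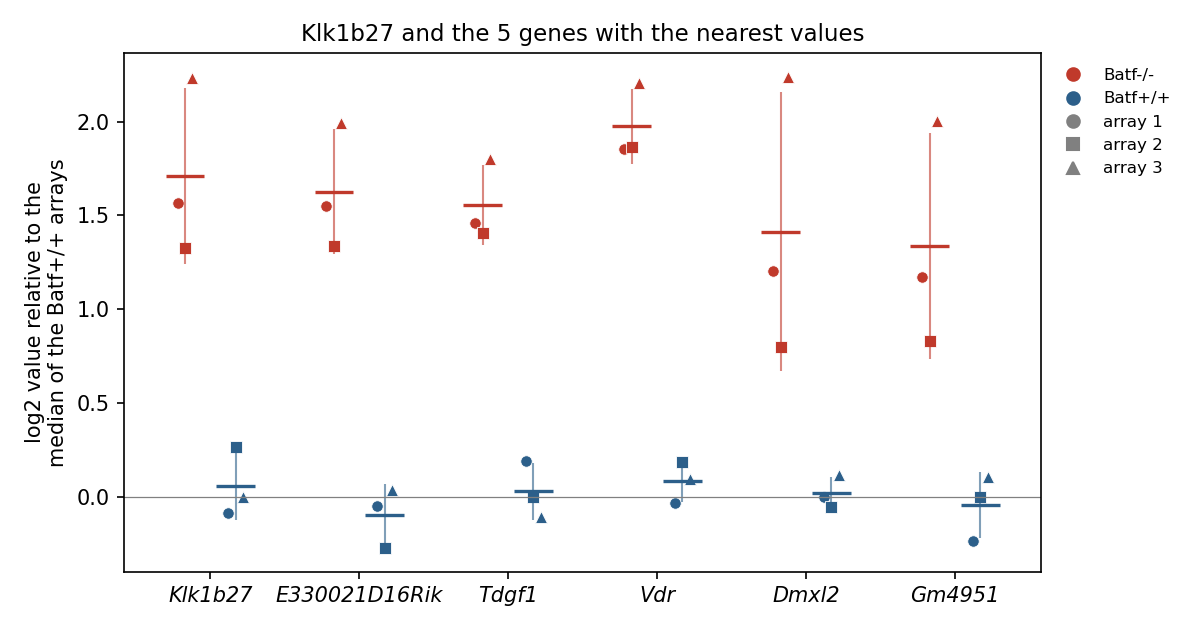
Log2 value relative to the Batf+/+ median for Klk1b27 and the 5 genes with the nearest values, with Batf-/- arrays in red on the left of each gene and Batf+/+ arrays in blue on the right. Symbols are array numbers, horizontal bars are means and vertical lines are ± SD (n = 3). Vdr has the highest mean on the Batf-/- arrays, 1.97, and Dmxl2 the widest spread, 0.74.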

How the data were processed

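Total RNA of sorted Treg cells was labelled with biotin and hybridised to 3' expression arrays, per the labels' protocols. The authors deposited 1 column of values per array and, per the submitters' processing notes, used RMA. Neither its version nor the log base is given there, and the deposited values were taken as log2. The middle of the 3 Batf+/+ values is 0 in all 45101 probe sets, so the deposited log2 values are relative to that median and hold no absolute level. The platform annotation gave the names, and 34945 probe sets list 1 gene, and 34741 of these matched RefSeq by Entrez identifier. A gene is the mean of its single-gene probe sets, with no filter.

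Genotypes were compared with limma 3.58.1 in R 4.3.3 (lmFit and eBayes, genotype only) over 18193 genes with Benjamini-Hochberg adjustment and a threshold of 0.05, and the procedure was tested on simulated data. Probe sets listing several genes were fitted over all 45037 probe sets that are no control. Promoters were aligned globally with Biopython 1.88 (match 1, mismatch -1, gap opening -3, gap extension -0.5). The members and lists were chosen with earlier results of these data known. All members and the 5 genes nearest to Klk1b27 are named. So are the called and most changed genes of the kinin, salivary gland and neighbour lists, and the highest and lowest of the other kallikreins. Bdkrb2 and Klk1b16 are named beyond this rule, after their values were seen.

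Deviations of arrays with the same number correlated at 0.407, 0.154 and 0.413, each above 0.1, so the numbers were taken to pair arrays, on the basis of the values. Those of unlike numbers ran from -0.413 to 0.049. Deviations within a group sum to 0, so these correlations are not independent of each other. The main fit used genotype only and left this pairing out. The fit with that block was an alternative, beside other scalings, array weights, other summaries of probe sets and leaving out each array.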

Additional observations from a re-analysis of the deposited data

How the results depend on the processing

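The log2 differences of the 7 members were recomputed under up to 15 alternatives. Of 103 values 99 moved by less than 1 SD between replicates. The 4 that moved more were Klk1b27 after quantile normalization (1.18), Klk1 without probe sets ending in _x_at, _s_at or _a_at (0.34), and Klk1b24 (0.38) and Klk1b5 (0.18) after equal spike-in medians. Quantile normalization took Batf to -2.02. It gives all arrays the same spread, whereas the SD of the deposited values was 0.12 to 0.17 on Batf+/+ arrays and 0.24 to 0.26 on Batf-/- arrays. Equal spike-in medians moved the median over all genes to 0.10, that of the members to 0.27 and that of the other kallikreins to 0.11, a setting that moves every gene by the same amount. Without those probe sets the members' median was 0.28. Leaving out 1 array at a time gave 1.39 to 1.84 for Klk1b27 and 0.10 to 0.29 for the members' median.

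The number of members past the threshold, which supports nothing since the same contrast chose them, was 1 (Klk1b27) in 14 of the 15 alternatives and 0 with a trended, robust variance. That trend runs on the mean value, which after centring follows the difference between genotypes itself (r = 0.87 across 18193 genes, which are not independent replicates). It called 3 genes higher and 47 lower, against 23 and 58 after quantile normalization. Equal spike-in medians gave 94 lower. In that fit Batf and all measured kallikreins had the same SE, 0.19, so the spread of each of these genes did not enter its p-value. Leaving out 1 array gave 31 to 51 higher and 73 to 141 lower. With the replicate block 91 genes were higher in Batf-/- cells, 1.61% of genes were called in all, and the block changed no call among the genes of any list. The 1 salivary marker called, Epcam, was lost (0 called) with equal spike-in medians, quantile normalization, the trended variance, without probe sets ending in _x_at, _s_at or _a_at, which leaves none for Epcam, and, leaving out 1 array, in a range of 0 to 1. A filter on low levels was not run, since the values hold no level, and signal over background is unknown.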
